A study of Mus musculus with 8 samples.

Results

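PWK/PhJ mice were compared with mice of 7 other inbred strains in 5 types of nuclei from the striatum. The nuclei of this comparison were those that the authors' deposited table placed in a cluster and whose RNA reads were assigned to PWK/PhJ. There were 5537 such nuclei in the 5 clusters, of 6403 annotated PWK/PhJ nuclei, 55672 annotated nuclei of all strains and 89339 barcodes in all. They comprised 1882 Drd1+ neurons, 1556 Drd2+ neurons, 1249 oligodendrocytes, 478 astrocytes and 372 macrophages. The other strains contributed 42513 nuclei to these clusters. The authors' strain assignment and cluster labels chose the members. The level of no gene in PWK/PhJ relative to other strains was used.

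All mice were 12 weeks old and of an inbred background, with no further treatment or transgene in the labels. The strains were PWK/PhJ, A/J, 129S1/SvImJ, NOD/ShiLtJ, CAST/EiJ, WSB/EiJ, NZO (NZO/H1LtJ in the series' description, NZO_HlLtJ in the deposited table) and C57BL/6 (C57BL/6J and C57BL_6NJ, respectively). Each of 4 batches held 1 mouse per strain, and the series' description gives 4 males and 4 females per batch. Nuclei were isolated from the frozen striata and then pooled within the batch, and RNA and open chromatin were sequenced from the same nuclei. Only the RNA counts were used here. Counts were summed per mouse and cluster, which gave 4 PWK/PhJ libraries against 28 others in each cluster.

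PWK/PhJ is a wild-derived strain of the subspecies Mus musculus musculus, CAST/EiJ is wild-derived from Mus musculus castaneus and WSB/EiJ from Mus musculus domesticus, and the remaining strains are classical laboratory strains. Most striatal neurons are GABAergic projection neurons. Those with the dopamine receptor Drd1 form the direct pathway, in which dopamine raises cAMP, and those with Drd2 form the indirect pathway, in which dopamine lowers it. Oligodendrocytes make myelin, astrocytes take up glutamate and potassium, and the macrophages of the brain tissue are mainly microglia.

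PWK/PhJ libraries held 2294365 to 3650722 counts in Drd1+ neurons, 1597100 to 2663746 in Drd2+ neurons, 165465 to 933558 in oligodendrocytes, 100020 to 407697 in astrocytes and 81379 to 169046 in macrophages. Marker sums are given in CPM of all counts of a library. Levels of single genes are in CPM of the counts of the genes that passed the filter on low counts, after TMM scaling, so the same counts give a different value on that scale. Nuclei carried the markers of their labels: summed macrophage markers (Csf1r, Cx3cr1, P2ry12 and C1qa) were at 4005 to 6206 CPM in PWK/PhJ macrophages and at 41.1 to 57.7 CPM in PWK/PhJ Drd1+ neurons. Oligodendrocyte markers (Mbp, Mog, Mobp and Mag) were also present in the neuron libraries. Their sum was 1174 to 1259.6 CPM (mean 1224) in the 4 PWK/PhJ Drd1+ libraries against 880.4 to 1194 CPM (mean 1064) in the other 28, and 1276 to 1415 against 895 to 1259 CPM in Drd2+ neurons. Astrocyte markers summed to 204 to 234 CPM in PWK/PhJ Drd2+ libraries and to 102 to 230 CPM in the others. No marker of either type was at 0, and their part in the differences below was not tested. Median UMIs per nucleus in Drd1+ neurons were 6296, 6123, 4803 and 6079.5 in PWK/PhJ and 4819 to 7637 (median 6686) in the other mice. Transcripts of Y-linked genes exceeded Xist in 2 of 4 PWK/PhJ mice and in 16 of 28 others. By batch this was 5 of 8 mice in batches 1 and 2 and 4 of 8 in batches 3 and 4, so the first pair of batches does not match the 4 males described. The labels give no sex for single mice, and sex was not a term of the fit. Of the barcode sequences of annotated nuclei, 1517 of 54141 occurred in more than 1 batch, and each was counted in its own batch.

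The number of genes that differed between PWK/PhJ and the mean of the other strains was largest in neurons. With edgeR's quasi-likelihood test, batch as a block and Benjamini-Hochberg adjustment, 4612 of 13431 genes passed an adjusted p of 0.05 in Drd1+ neurons (34.3% of those tested; 2285 higher and 2327 lower in PWK/PhJ). In Drd2+ neurons 3881 of 12799 passed (30.3%; 1943 higher, 1938 lower), in oligodendrocytes 1427 of 9082 (15.7%; 671 higher, 756 lower), in astrocytes 734 of 8207 (8.94%; 392 higher, 342 lower) and in macrophages 524 of 3858 (13.6%; 279 higher, 245 lower). These counts depended on depth: with every library thinned to 27325 counts, 36 of 665, 47 of 653, 78 of 701, 52 of 674 and 115 of 784 genes passed in the same order of clusters. Most of the genes that passed differed by less than 1 on the log2 scale. Of those that passed, 889 of 4612 reached 1 in Drd1+ neurons, 320 of 734 in astrocytes and 225 of 524 in macrophages. The median absolute log2 fold change of the genes that passed was 0.50 in Drd1+ neurons and 0.91 in macrophages, and in each cluster the share of tested genes that also reached 1 on the log2 scale in either direction was small. It was 6.62% in Drd1+ neurons (889 genes, 2.70% higher and 3.92% lower), 6.37% in Drd2+ neurons (815, 2.74% and 3.63%) and 4.95% in oligodendrocytes (450, 1.68% and 3.27%). In astrocytes it was 3.90% (320, 1.71% and 2.19%) and in macrophages 5.83% (225, 2.46% and 3.37%).

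**Figure D1:**
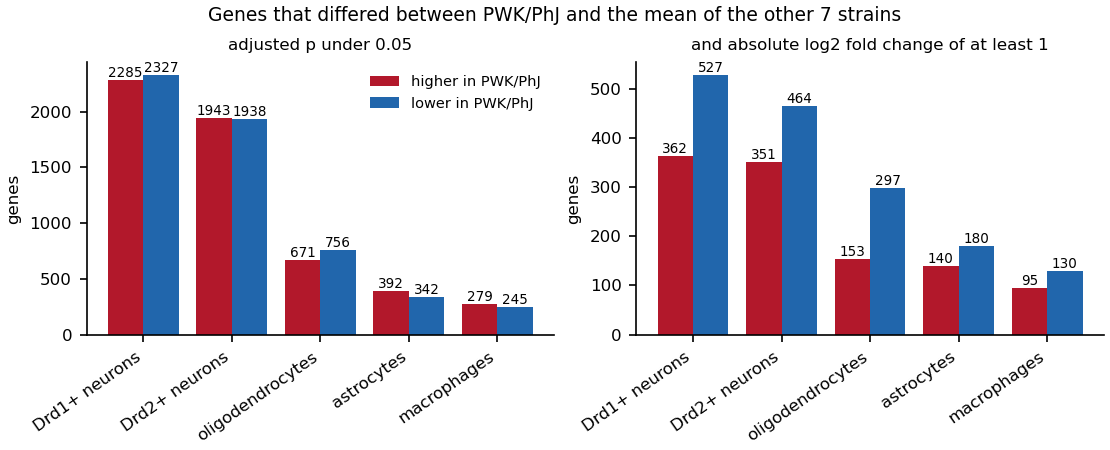
Bars give the number of genes higher (red) and lower (blue) in PWK/PhJ than in the mean of the other 7 strains, per cluster, at an adjusted p under 0.05 (left) and with an absolute log2 fold change of 1 or more in addition (right). The left panel runs from 2285 and 2327 genes in Drd1+ neurons to 279 and 245 in macrophages, and in the right panel the lower genes outnumber the higher ones in each of the 5 clusters.

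Genes with little RNA in the other strains gave the largest increases in Drd1+ neurons. The filter on low counts keeps a gene that is high enough in the 4 mice of 1 strain, so such genes can enter through PWK/PhJ alone. A level near 0 in the other strains also makes a fold change large. In 214 genes all 4 PWK/PhJ mice lay above the other 28 (1.59% of those tested) and in 207 all lay below them (1.54%). The genes whose levels or log2 fold changes are given in this and the next paragraph are among the 214. Leading genes of every cluster were picked from genes whose 4 PWK/PhJ mice lay all above or all below the other 28. That separation is thus a condition of the choice and not a result. Scn10a (chr9:119608456-119719322; coordinates here are RefSeq positions on GRCm38.p6), a voltage-gated sodium channel known from sensory neurons, was at 15.9, 12.1, 10.5 and 5.53 CPM in the 4 PWK/PhJ mice, given here and below in the order of batches 1 to 4, and at 0 to 0.672 CPM (median 0) in the others. The log2 fold change is the fitted PWK/PhJ level minus the mean of the fitted log2 levels of the 7 strains. It was 6.40 ± 0.34 for Scn10a (SE, adjusted p 1.73e-17, edgeR). The SE of a log2 fold change, here and below, is its absolute value divided by the square root of the test's F statistic. It is therefore approximate, above all for genes near 0 in most strains. Rnf212 (chr5:108728105-108775067), which acts in meiotic crossing-over, was at 13.1, 15.2, 16 and 18.4 CPM against 0 to 1.12 CPM (median 0), with a log2 fold change of 6.22 ± 0.29. Samd11 (chr4:156246966-156256011), a nuclear protein studied mainly in the retina, was at 49.5, 67.2, 60.2 and 57.5 CPM against 0 to 16.2 CPM (median 2.56); CAST/EiJ had the next highest mean, 11.3 CPM. These 3 genes were thus near absence in most strains and present in each PWK/PhJ mouse.

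Sema3d (chr5:12383161-12588953), a secreted guidance cue of the semaphorin family, was at 23.5, 22.5, 21 and 28 CPM against 0 to 4.76 CPM (median 1.3), a log2 fold change of 3.84 ± 0.21. Thsd7b, a membrane protein with thrombospondin repeats, was at 47.8, 83.5, 53.9 and 72.3 CPM against 3.31 to 31 CPM (median 7.1), with CAST/EiJ between PWK/PhJ and the rest at a mean of 22.6 CPM. Otx2os1, an antisense transcript beside Otx2, rose by 4.33 on the log2 scale, Ubash3a, a regulator of T cell receptor signalling, by 3.89, the aldehyde oxidase Aox2 by 3.39 and the centromere protein gene Cenpf by 3.14. Cenpf was also high in NZO mice (mean 9.46 CPM against 15.6 in PWK/PhJ), so it was not apart from each strain. Catspere1, a subunit of the sperm calcium channel CatSper, had a log2 fold change of 4.42 although the group means were 143 and 37.8 CPM, because the mean of log levels gives weight to strains near 0. Ubash3a overlaps Rsph1, Samd11 lies beside Noc2l and Catspere1 beside its paralog Catspere2, and whether the counting used strand, and how it treated reads that match several genes, is not given in the sources used here.

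The largest decreases in Drd1+ neurons brought genes of moderate level close to 0 in PWK/PhJ. Zfp605 (chr5:110110028-110131536), a zinc finger gene, was at 0.839, 0.693, 0.421 and 0.307 CPM in PWK/PhJ and at 5.62 to 22.2 CPM (median 11.1) in the other mice (log2 fold change -4.25 ± 0.32, adjusted p 8.29e-15, edgeR). Plekhh2 (chr17:84511895-84622143), an actin-associated protein best known in the kidney, was at 1.96, 2.77, 1.26 and 0.307 CPM against 7.82 to 26 CPM (median 18.2) (log2 fold change -3.46 ± 0.23). Dgkg (chr16:22466568-22657302), a diacylglycerol kinase that ends lipid second messenger signals, was at 3.91, 2.77, 3.37 and 5.53 CPM against 8.65 to 76.5 CPM (median 55.6) (log2 fold change -3.41 ± 0.18). For Dgkg CAST/EiJ was nearly as low, at a mean of 9.44 CPM against 68.8 in 129S1/SvImJ, the highest. Epyc, a small proteoglycan of cartilage, was at 3.63, 4.16, 4.21 and 2.15 CPM against 9.39 to 71 CPM (median 34.9), again with CAST/EiJ the lowest of the others (15.5 CPM). The remaining 6 of the 10 largest decreases were between -2.77 and -2.24 on the log2 scale: Cabcoco1, a gene of the centrosome, the sperm axoneme gene Spag6l, Rab27a, a GTPase of secretory vesicles, the collagen-binding receptor Antxr1, Efcc1 and the syntaxin-binding gene Stxbp4. CAST/EiJ was the strain nearest to PWK/PhJ for Cabcoco1, Spag6l, Efcc1 and Stxbp4, 129S1/SvImJ for Rab27a and WSB/EiJ for Antxr1.

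**Figure D2:**
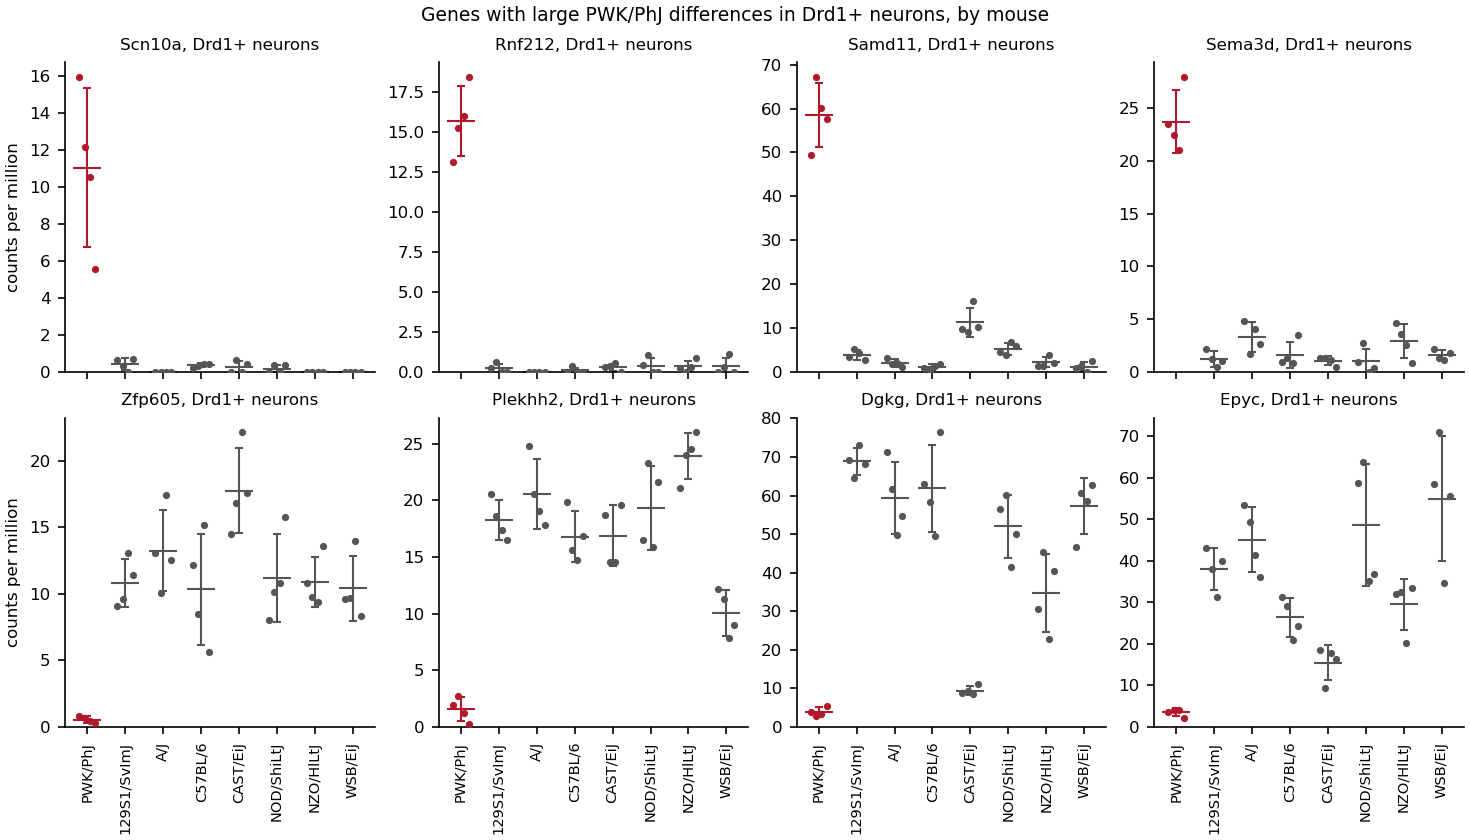
Each point is 1 mouse's CPM in Drd1+ neurons (PWK/PhJ in red, 4 mice per strain), and the bars give the mean and SD over the 4 mice. The 4 genes of the upper row were higher and the 4 of the lower row lower in every PWK/PhJ mouse than in all 28 others, a condition on which they were picked. CAST/EiJ is the next in line for Samd11, Dgkg and Epyc.

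Drd2+ neurons gave much the same leading genes. Scn10a was at 14.9, 16.4, 7.24 and 11.3 CPM in PWK/PhJ and at 0 to 0.464 CPM (median 0) elsewhere, that is 113 counts against 2, a ratio of 479 with an exact 95% counting interval of 129 to 4001. Rnf212 was at 14.1, 12.2, 16.9 and 20.6 CPM against 0 to 0.903 CPM (median 0), and Otx2os1 at 19.4, 12.2, 26.6 and 13.9 CPM against 0 to 2.69 CPM (median 0.34). Sema3d and Catspere1 completed the 5 largest increases, with log2 fold changes of 4.34 ± 0.26 and 4.29 ± 0.11. All 4 PWK/PhJ mice exceeded all others for each of the 5 genes, which were picked on that condition. They did so for 180 genes in all (1.41%), and they lay below all others for 179 (1.40%). Among the decreases, Epyc (-3.47 ± 0.22), Zfp605 (-3.37 ± 0.31), Plekhh2 (-3.21 ± 0.34) and Spag6l (-2.61 ± 0.33) returned, with Uevld, a gene related to ubiquitin-conjugating enzymes, at 2.67, 0.469, 3.62 and 4.62 CPM against 9.4 to 36.3 CPM (median 19.6). Spag6l had no count in the PWK/PhJ mouse of batch 1, and its difference from CAST/EiJ was close to the threshold (adjusted p 0.0492 for the smallest of the 7 strain differences, edgeR).

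A gene can pass the test against the mean of the other strains while matching some of them, so PWK/PhJ was also compared with each strain. In Drd1+ neurons 411 of 13431 genes (3.06%) differed from every other strain in 1 direction, 195 higher and 216 lower, counting a gene when the largest of its 7 p-values had an adjusted value under 0.05. The number was 349 in Drd2+ neurons (2.73%), 105 in oligodendrocytes (1.16%), 39 in astrocytes (0.475%) and 36 in macrophages (0.933%). In Drd1+ neurons CAST/EiJ was the strain nearest in level to PWK/PhJ for 116 of the 411 genes, and each of the others for 46 to 56. Most of the leading genes belong to this set: the adjusted p of the smallest strain difference in Drd1+ neurons was 1.31e-08 for Scn10a, 2.82e-10 for Rnf212, 2.54e-10 for Zfp605 and 0.00238 for Dgkg (edgeR). The same value was 0.105 for Cenpf, which is shared with NZO. The count was 249 without batch 1, 262 without batch 2, 271 without batch 3 and 291 without batch 4.

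In oligodendrocytes the leading increases included a drug-metabolising enzyme, a guidance receptor and a cytokine subunit. Cyp2j11 (chr4:96294508-96348693), a cytochrome P450 of a family of close neighbours, was at 108, 141, 139.8 and 105 CPM in PWK/PhJ against 0 to 48.2 CPM (median 0). Only CAST/EiJ among the others had a mean above the level of a few counts, 32.9 CPM, and the log2 fold change was 6.88 ± 0.26 (adjusted p 3.51e-41, edgeR). Reads shared with other Cyp2j genes could not be told apart, so its level is uncertain. Unc5d (chr8:28646717-29219671), a netrin receptor, was at 418, 365, 365 and 282 CPM against 0 to 29.96 CPM (median 10.3) (log2 fold change 5.30 ± 0.17). Colq, the collagen tail of acetylcholinesterase, was at 74.3, 59, 79 and 102 CPM against 0 to 6.38 CPM (median 0.523), and Il12a, which encodes a subunit of interleukin 12, at 65.4, 84, 152 and 109 CPM against 0 to 10.9 CPM (median 1.79). Each of these genes was among the 68 (0.749%) that were higher in all 4 PWK/PhJ mice than in all 28 others.

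Among the decreases in oligodendrocytes, Heg1 (chr16:33684384-33771576), a membrane protein known for its role in blood vessels, was at 2.22, 6.81, 0 and 4.27 CPM in PWK/PhJ and at 133 to 302 CPM (median 170.2) in the other mice, 7 counts against 3384 (log2 fold change -5.58 ± 0.25, adjusted p 4.56e-36, edgeR). Gria4 (chr9:4417893-4796234), a subunit of AMPA glutamate receptors, was at 15.5, 18.2, 18.2 and 10.7 CPM against 120.1 to 358 CPM (median 251) (log2 fold change -3.89 ± 0.18). Both genes are among the 80 (0.881%) whose PWK/PhJ levels all lay below the others. The Gria4 levels lay far apart in oligodendrocytes, whereas in Drd1+ neurons they overlapped, at 665, 714, 616 and 686 CPM against 473 to 928 CPM (median 720.2) (log2 fold change -0.01 ± 0.05, adjusted p 0.934). Whether the Gria4 difference differs between these clusters was not tested. Rasal1, a Ras-inactivating protein, was at 3.33, 9.08, 0 and 2.13 CPM against 27 to 129.99 CPM (median 66). Zfp605 had no count in PWK/PhJ oligodendrocytes against 456 in the others, so it was at least 16.1-fold lower, taking 3 counts over the group as the floor. Ccdc62 had 2 counts against 443, a ratio of 23.4 (exact 95% counting interval 6.45 to 194) in favour of the other strains, and Plekhh2 1 count against 1428, a ratio of 151 (27.1 to 5975).

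Of 30 myelin and mature oligodendrocyte genes tested in this cluster, 5 were higher and 7 lower in PWK/PhJ, where 7.39% and 8.32% of all tested genes were. The higher members included Il33, an alarmin cytokine, at 489 ± 68.5 CPM (SD, n = 4) against 299.9 ± 274 CPM (SD, n = 28) (log2 fold change 1.13 ± 0.11, adjusted p 4.20e-11, edgeR), with CAST/EiJ higher still at a mean of 912 CPM. Ugt8a, which makes galactosylceramide, Enpp2 and the tight junction gene Cldn11 also rose. The lower members were Klk6, the myelin transcription factor gene Myrf, Nkx6-2, Fa2h, Aspa, Car2 and Apod. Myrf was at 114 ± 46.3 CPM (SD, n = 4) against 169 ± 30.3 CPM (SD, n = 28), a log2 fold change of -0.67 ± 0.13. Mbp, the myelin basic protein gene, was at 7765 ± 746 CPM (SD, n = 4) against 7562 ± 606 CPM (SD, n = 28) and did not pass (log2 fold change 0.04 ± 0.05, adjusted p 0.704). The median log2 fold change was -0.11 over the list and 0.01 over all genes, and 3 members were higher without batch 2. Astrocyte markers (Aqp4, Slc1a2, Slc1a3, Gja1 and Aldh1l1) summed to 629 to 983 CPM (mean 804) in PWK/PhJ oligodendrocyte libraries and to 329 to 891 CPM (mean 648) in the others, with none at 0. The gap lay mainly in Slc1a3 (mean 323 against 196 CPM). Slc1a2 (416 against 393 CPM), Aqp4 (17.6 against 13.3 CPM), Gja1 (32.3 against 31.6 CPM) and Aldh1l1 (15.1 against 14.2 CPM) differed less. The part of these markers in the oligodendrocyte differences was not tested.

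Of 13 ionotropic glutamate receptors tested in PWK/PhJ oligodendrocytes 4 were lower and 1 higher, where 8.32% and 7.39% of all genes were. Besides Gria4, the kainate receptor subunit Grik4 was at 6.65, 9.08, 18.2 and 6.4 CPM against 6.65 to 75.2 CPM (median 46.2), where CAST/EiJ was as low as PWK/PhJ (9.4 CPM). Grik2, another kainate receptor subunit, was at 520.1, 529, 498 and 489 CPM against 693 to 1429 CPM (median 1025), with all 4 PWK/PhJ mice lowest (log2 fold change -1.03 ± 0.08). Grik1 rose by 1.38 on the log2 scale, with 129S1/SvImJ higher still at a mean of 734 CPM against 618 in PWK/PhJ. The count of lower members was 3 when any batch was left out.

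Fewer genes differed in astrocytes, the cluster with 478 PWK/PhJ nuclei. Rasgrf1 (chr9:89909508-90026979), a calcium-responsive exchange factor for Ras, was at 223, 271, 359 and 300.2 CPM in PWK/PhJ against 0 to 41 CPM (median 29.3) (log2 fold change 3.33 ± 0.16, adjusted p 1.83e-33, edgeR). Mctp1, a membrane protein with calcium-binding C2 domains, was at 207, 171, 254 and 184 CPM against 8.71 to 142 CPM (median 29.4). Prss56, a serine protease, was at 419, 388, 676 and 452 CPM against 0 to 337 CPM (median 113), and Catspere1 and Catspere2 rose by 3.83 and 2.65 on the log2 scale. All 5 are among the 43 genes (0.524%) with all PWK/PhJ mice above the others. Prss56 was also high in WSB/EiJ (mean 281 CPM) and did not differ from each strain (adjusted p 0.572).

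Fgf13 (chrX:59062139-59585572), an intracellular member of the fibroblast growth factor family that binds sodium channels, was at 119, 116, 42.3 and 134 CPM in PWK/PhJ astrocytes against 201 to 780.1 CPM (median 529.8) (log2 fold change -2.15 ± 0.15). Kcnj3, a subunit of G protein-gated potassium channels, was at 13.3, 0, 10.6 and 3.53 CPM against 15.4 to 161 CPM (median 68.4), and Tgfb2, a growth factor of the TGF-beta family, at 10.6, 15.5, 21.1 and 3.53 CPM against 23.7 to 82.2 CPM (median 54.8). Heg1 was low here too, at 5.31, 7.75, 0 and 3.53 CPM against 15 to 67.1 CPM (median 31.4). Epb41l4a, a membrane skeleton gene, had 2 counts in PWK/PhJ against 354, a ratio of 18.9 (exact 95% counting interval 5.19 to 157). These 5 genes were picked from the 23 decreases (0.280%) in which no PWK/PhJ mouse overlapped the other 28.

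Of 30 astrocyte function genes 1 was higher and 5 were lower in PWK/PhJ astrocytes, where 4.78% and 4.17% of all tested genes were. Mertk, a receptor for the clearance of dead cells and synapses, was at 1182 ± 174 CPM (SD, n = 4) against 749 ± 148 CPM (SD, n = 28) (log2 fold change 0.65 ± 0.10, adjusted p 1.42e-06, edgeR). Gfap, the intermediate filament of astrocytes, was at 56.5 ± 40.7 CPM (SD, n = 4) against 137 ± 92 CPM (SD, n = 28) (log2 fold change -0.99 ± 0.29, adjusted p 0.0306). The groups overlapped for Gfap, and its mean was highest in NZO, 244 CPM. Cspg5, Id3, the neurotensin receptor gene Ntsr2 and the glutamate transporter gene Slc1a2 fell by 0.47, 0.47, 0.39 and 0.25. The count of lower members was 5 without batch 1 or batch 3, 2 without batch 2 and 1 without batch 4. Marker sums of other cells moved in both directions in the PWK/PhJ astrocyte libraries. Projection neuron markers (Ppp1r1b, Bcl11b, Rgs9 and Pde10a) summed to 139.97 to 375 CPM (mean 272) against 272 to 974 CPM (mean 447). The largest gap was in Pde10a (mean 93.5 against 209 CPM). Oligodendrocyte precursor markers summed to 14.6 to 23.4 CPM (mean 18.2) against 0 to 84.2 CPM (mean 41.1). Of these Vcan was lower (10.1 against 33.2 CPM), Cspg4 near level (5.08 against 5.59 CPM) and Pdgfra slightly higher (2.97 against 2.37 CPM). Sums of cortical excitatory neuron markers (mean 25.5 against 17.0 CPM) and perivascular macrophage markers (7.36 against 1.61 CPM) were higher. The part of these markers in the astrocyte differences was not tested.

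In macrophages the protease inhibitor gene Slpi (chr2:164354070-164356507) stood out: it was at 271, 333, 389.9 and 565 CPM in PWK/PhJ and at 0 to 10.7 CPM (median 0) in the other mice. This corresponds to 169 counts against 3, a ratio of 368 with an exact 95% counting interval of 124 to 1803 (log2 fold change 7.80 ± 0.42, adjusted p 1.49e-28, edgeR; 0.371 with DESeq2). Atrnl1, an attractin-like membrane protein, was at 443, 333, 495 and 414 CPM against 0 to 107 CPM (median 31.2). Mrc2, a collagen uptake receptor, was at 279, 321, 389.9 and 376 CPM against 0 to 208 CPM (median 31.4), with CAST/EiJ at a mean of 156 CPM, and the meiotic mismatch repair gene Msh5 at 217 ± 22.5 CPM (SD, n = 4) against 0 to 151 CPM (median 12.2), with A/J at a mean of 122 CPM. All 4 are among the 28 genes (0.726%) with every PWK/PhJ mouse above the others. The 4 genes were picked on that condition. Slpi and Atrnl1 were apart from each strain (adjusted p 2.31e-10 and 7.45e-05), and Mrc2 and Msh5 did not pass that test (adjusted p 0.117 and 1).

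Apbb2 (chr5:66298725-66619064), an adaptor of the amyloid precursor protein that overlaps Nsun7, was at 21.4, 11.1, 0 and 0 CPM in PWK/PhJ macrophages against 218 to 599 CPM (median 353) (log2 fold change -5.06 ± 0.37, adjusted p 9.58e-22, edgeR). Plxna4, a semaphorin receptor, was at 78.6, 199.5, 149.9 and 90.3 CPM against 442 to 924 CPM (median 657), and Rtn4rl1, a relative of the Nogo receptor, at 14.3, 22.2, 15 and 45.2 CPM against 47.4 to 339 CPM (median 136). Tspan18, a tetraspanin, had 2 counts against 361, a ratio of 27.6 (exact 95% counting interval 7.59 to 229). Olfml3, a secreted protein enriched in microglia, was at 14.3, 44.3, 45 and 45.2 CPM against 79.98 to 1152 CPM (median 238). All PWK/PhJ mice lay below all others for these 5 genes, which are among 29 of that kind (0.752%).

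The microglia homeostatic genes moved in both directions. Of 29 tested, 4 were higher and 6 lower, where 7.23% and 6.35% of all tested genes were, and the median log2 fold change was -0.12 over the list and 0.02 over all genes. Fcrls, an Fc receptor-like gene of microglia, had 3 counts in PWK/PhJ against 641, but the strains split: the mean was 18.4 CPM for WSB/EiJ mice but 905 CPM for CAST/EiJ mice, and PWK/PhJ overlapped the low strains. The fractalkine receptor gene Cx3cr1 was at 1149 ± 143 CPM (SD, n = 4) against 1694 ± 290.3 CPM (SD, n = 28) (log2 fold change -0.54 ± 0.11, adjusted p 9.05e-05, edgeR), and Tgfbr1, a receptor of TGF-beta, at 2086 ± 208 CPM (SD, n = 4) against 3000.1 ± 384 CPM (SD, n = 28). Slc2a5, a fructose transporter, rose by 1.92 and the lysosomal protease gene Ctss by 0.67. P2ry12 and Csf1r, which define microglia, did not pass, with log2 fold changes of -0.10 ± 0.11 and -0.23 ± 0.11. Markers of other cells differed in the macrophage libraries. Endothelial markers (Flt1, Cldn5 and Pecam1) summed to 127 to 221 CPM (mean 155) in PWK/PhJ and 20.6 to 476 CPM (mean 104) in the others. Of these only Pecam1 was higher in PWK/PhJ (mean 140.75 against 79.89 CPM). Flt1 (5.95 against 9.42 CPM) and Cldn5 (8.06 against 14.98 CPM) were lower. Projection neuron markers summed to 283 to 614 CPM (mean 434) against 167 to 496 CPM (mean 323). Astrocyte markers summed to 467 to 948 CPM (mean 669.7) against 439 to 5629 CPM (mean 1418). The gap lay mainly in Slc1a3 (mean 179 against 896 CPM). Aqp4 was lower too (13.5 against 25.1 CPM), and Aldh1l1 was higher (10.4 against 7.53 CPM). Slc1a2 (423 against 444 CPM) and Gja1 (44.2 against 44.9 CPM) were near level. Perivascular macrophage markers (Mrc1, Cd163 and F13a1) summed to 47.3 to 111 CPM (mean 72.9) against 0 to 544 CPM (mean 116). The largest gap was in F13a1 (mean 13.3 against 50.2 CPM), with Mrc1 at 52.9 against 60.9 CPM and Cd163 at 6.67 against 4.64 CPM. The groups overlapped for each sum, no marker was at 0 in all libraries, and their part in the macrophage differences was not tested.

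**Figure D3:**
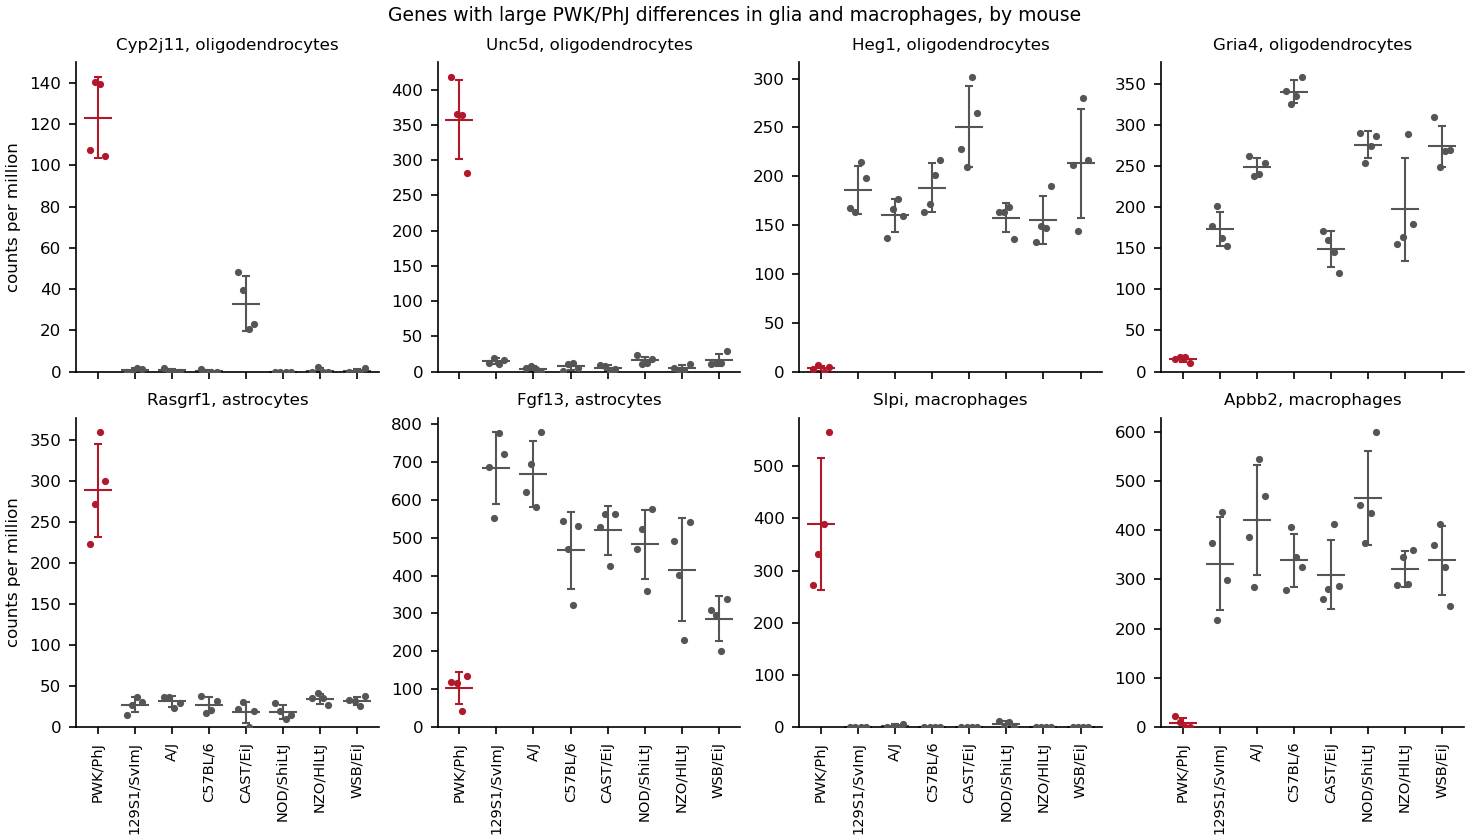
Each point is 1 mouse's CPM (PWK/PhJ in red, 4 mice per strain), with the mean and SD over the 4 mice, for 4 genes in oligodendrocytes, 2 in astrocytes and 2 in macrophages. In every panel the 4 PWK/PhJ mice lie outside the range of the other 28, above it for Cyp2j11, Unc5d, Rasgrf1 and Slpi and below it for Heg1, Gria4, Fgf13 and Apbb2. Leading genes were picked for this lack of overlap.

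Of the 3235 genes tested in all 5 clusters, 15 passed the test with the same sign in each. The increases included Catspere1, Catspere2, Sfi1, a centrosomal gene, and Agpat5, an enzyme of phospholipid synthesis. Sfi1 was higher still in CAST/EiJ neurons, at a mean of 138 CPM in Drd1+ neurons against 101 in PWK/PhJ. All 4 PWK/PhJ mice lay above the 28 others for Catspere1 and Catspere2 in each cluster. Catspere2 was at 566, 505, 542 and 527 CPM in Drd1+ neurons against 47.2 to 389.95 CPM (median 139) and at 599.98, 554, 539.8 and 632 CPM in macrophages against 10.1 to 158 CPM (median 68.6). Among the decreases, Ndufaf4, an assembly factor of respiratory complex I, was at 54.2, 48.5, 48 and 37.8 CPM in Drd1+ neurons against 72.9 to 156 CPM (median 94.9), with log2 fold changes of -1.06, -0.99, -1.48, -1.29 and -1.22 from Drd1+ neurons to macrophages. Trmt10a, which methylates tRNA, fell by between 0.95 and 2.00, with CAST/EiJ as low as PWK/PhJ in Drd1+ neurons (7.94 CPM against 9.84). Cwc22, a splicing factor gene, also counts as a decrease, but WSB/EiJ was far above every strain: its mean in Drd1+ neurons was 1564 CPM, against 30.5 in PWK/PhJ and 35.9 in CAST/EiJ.

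Of 17 immediate early genes tested, 9 were higher in PWK/PhJ in each of the neuron types, but without batch 2 only 1 passed in Drd1+ and 2 in Drd2+ neurons. These genes are transcribed within minutes of neuronal activity or other stimuli, and many are switched on by the factor CREB at cAMP response elements. Because 9 of them rose together, the 250 bases upstream of a RefSeq transcript start are shown for 4 members (GRCm38.p6), 5′ to 3′ on the gene's own strand, with the core motif TGACG, or CGTCA on the other strand, in capitals.
Fos, chr12:85473640-85473889, plus strand: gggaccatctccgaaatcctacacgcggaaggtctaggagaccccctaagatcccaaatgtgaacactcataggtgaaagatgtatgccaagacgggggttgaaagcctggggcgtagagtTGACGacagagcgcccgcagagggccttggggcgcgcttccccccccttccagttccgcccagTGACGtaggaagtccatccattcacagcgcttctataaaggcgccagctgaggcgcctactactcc
Npas4, chr19:4989972-4990221, minus strand: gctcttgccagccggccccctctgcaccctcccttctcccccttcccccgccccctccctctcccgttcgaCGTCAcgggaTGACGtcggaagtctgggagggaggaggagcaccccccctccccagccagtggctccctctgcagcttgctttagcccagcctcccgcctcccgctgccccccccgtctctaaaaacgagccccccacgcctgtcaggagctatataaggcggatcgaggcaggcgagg
Nr4a3, chr4:48045055-48045304, plus strand: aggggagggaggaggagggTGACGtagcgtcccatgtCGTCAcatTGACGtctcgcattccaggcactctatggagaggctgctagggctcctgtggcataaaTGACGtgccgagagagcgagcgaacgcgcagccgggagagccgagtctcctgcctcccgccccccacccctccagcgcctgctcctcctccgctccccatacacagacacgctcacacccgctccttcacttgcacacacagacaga
Btg2, chr1:134079156-134079405, minus strand: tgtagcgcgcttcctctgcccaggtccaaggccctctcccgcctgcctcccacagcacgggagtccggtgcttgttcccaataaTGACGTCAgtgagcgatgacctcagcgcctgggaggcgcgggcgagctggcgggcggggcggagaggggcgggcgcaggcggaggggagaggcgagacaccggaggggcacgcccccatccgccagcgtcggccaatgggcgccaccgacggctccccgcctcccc
The core motifs lie 129 and 66 bases before this transcript start in Fos, 179 and 169 before it in Npas4, and 231, 213, 205 and 147 before it in Nr4a3. For Npas4 and Nr4a3 the transcript start lies inside the span that RefSeq gives the whole gene (chr19:4984353-5003439 and chr4:48045078-48086447), so these windows are not upstream of the gene's outermost start. In Btg2 they overlap and form the full element TGACGTCA. In all, 17.8% of 32851 mouse promoters of this length hold the core motif and 1.55% the full element. Of the 8 members higher in PWK/PhJ that have a promoter entry 6 hold a core motif and 2 the full element, and of the 7 other members with an entry 6 hold a core motif and 0 the full element. A match describes these letters and is no evidence of binding. The sequences are of the reference genome, and the PWK/PhJ sequence was not analysed here.

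Of 17 immediate early genes tested, 9 were higher and 0 lower in PWK/PhJ Drd1+ neurons, where 17.0% of all tested genes were higher, and the same counts held in Drd2+ neurons (15.2%). The median log2 fold change was 0.74 over the list in Drd1+ and 0.86 in Drd2+ neurons, against 0.01 over all genes in both. Fos, a subunit of the transcription factor AP-1, was at 6.15, 13.5, 8.0 and 15.7 CPM in PWK/PhJ Drd1+ neurons and at 0 to 12.3 CPM (median 4.8) in the other mice (log2 fold change 1.36 ± 0.44, adjusted p 0.0216, edgeR). In Drd2+ neurons it was at 10.3, 17.4, 8.45 and 17.6 CPM against 0 to 15.2 CPM (median 5.85) (log2 fold change 1.24 ± 0.36, adjusted p 0.0112). Npas4, a transcription factor induced by calcium influx, was at 98.4, 88.7, 70.3 and 93.5 CPM in Drd1+ neurons against 4.03 to 79.95 CPM (median 49.9), and Nr4a3, an orphan nuclear receptor, at 40.5, 76.5, 45.9 and 35.4 CPM against 0.336 to 69 CPM (median 15.9). Btg2, an antiproliferative gene, was at 11.5, 17, 13.5 and 41.2 CPM in Drd1+ neurons against 1.01 to 26.7 CPM (median 8.15) and at 13, 26.3, 16.9 and 37.4 CPM in Drd2+ neurons against 1.06 to 22.3 CPM (median 6.51) (log2 fold change 1.65 ± 0.33, adjusted p 0.000571). The groups overlapped for each of these genes. The PWK/PhJ mouse was above the mean of the other 7 of its batch in 4 of 4 batches for Fos, Npas4, Nr4a3 and Btg2 in both neuron types, and the highest of the 8 in 2 or 3 batches.

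The other members that rose were the AP-1 subunits Fosl2 and Jun, the zinc finger factors Egr3 and Egr4 and the phosphatase Dusp1, by 0.56 to 1.00 on the log2 scale in Drd1+ neurons. Arc, Egr1, Junb and Homer1 did not pass: Arc, a regulator of AMPA receptor traffic, was at 37.2, 40.2, 31.2 and 43.4 CPM against 6.52 to 46.3 CPM (median 25) (log2 fold change 0.68 ± 0.32, adjusted p 0.105, edgeR), and Egr1 had a log2 fold change of 0.30 ± 0.20. Fos, Npas4, Nr4a3 and Btg2 each had their next highest mean in NOD/ShiLtJ, which for Nr4a3 in Drd1+ neurons, at 49.4 CPM, nearly equalled the 49.6 CPM of PWK/PhJ, and none of the 9 was apart from each strain. The count of immediate early genes that passed depended on single batches. In Drd1+ neurons it was 4 without batch 1, 1 without batch 2, 7 without batch 3 and 6 without batch 4, and in Drd2+ neurons 6, 2, 7 and 9. Few members could be tested in the other clusters: 0 of 6 were higher in oligodendrocytes, 0 of 6 in astrocytes and 0 of 3 in macrophages, where 7.39%, 4.78% and 7.23% of all genes were, so these counts show no contrast with the neurons.

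**Figure D4:**
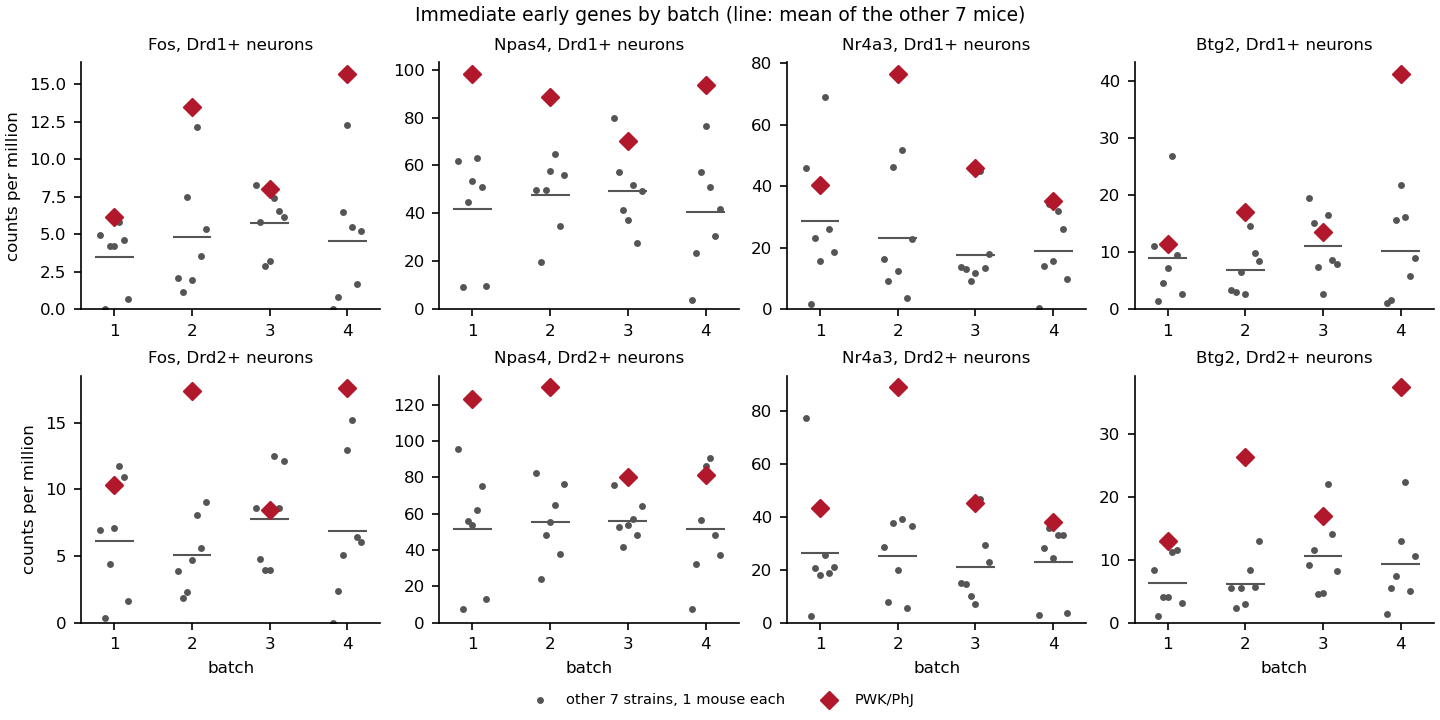
CPM of 4 immediate early genes in Drd1+ (top) and Drd2+ neurons (bottom) by batch, with PWK/PhJ as red diamonds, the other 7 mice of the batch as grey points and their mean as a line. The PWK/PhJ mouse lies above the line in all 4 batches of every panel, and other mice reach its level in some batches.

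In PWK/PhJ Drd1+ neurons some genes that mark the direct pathway were lower and some that mark the indirect pathway higher. Of 9 direct pathway projection neuron genes 0 were higher and 5 lower, where 17.0% and 17.3% of all tested genes were, with a median log2 fold change of -0.29. Pdyn passed as 1 higher member with DESeq2, with its scaling in edgeR, with no filter on low counts and without batch 1. Eya1 (chr1:14168953-14311035), a transcriptional coactivator with phosphatase activity, was at 10.9, 8.66, 7.16 and 3.07 CPM against 17.2 to 62.8 CPM (median 35.7) (log2 fold change -2.21 ± 0.22, adjusted p 6.35e-09, edgeR). Ebf1, a transcription factor of direct pathway neurons, was at 302, 246, 243 and 248 CPM against 309 to 498 CPM (median 391) (log2 fold change -0.60 ± 0.07), and all PWK/PhJ mice were below all others for both genes. Drd1 itself, the receptor that defines the cluster, was at 167, 172, 189 and 174 CPM against 166 to 340.3 CPM (median 225) (log2 fold change -0.38 ± 0.06, adjusted p 6.94e-07), with overlap, and 129S1/SvImJ was close to PWK/PhJ at a mean of 191 CPM. The peptide precursor genes Tac1 and Pdyn did not pass: Tac1, which encodes substance P, was at 273, 269.8, 421 and 292 CPM against 212 to 681 CPM (median 321), and Pdyn, which encodes dynorphin, at 48.4, 61.6, 77 and 72.9 CPM against 30.2 to 113 CPM (median 53.5).

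Of 7 indirect pathway projection neuron genes tested in Drd1+ neurons, 5 were higher and 0 lower, where 17.0% and 17.3% of all genes were. Ptprm, a receptor phosphatase, was at 38.3, 20.4, 26.1 and 31.1 CPM against 4.54 to 35.9 CPM (median 12.7) (log2 fold change 1.06 ± 0.19, adjusted p 8.29e-05, edgeR). The adenosine receptor gene Adora2a was at 16.8, 13.5, 17.7 and 14.5 CPM against 6.48 to 15.5 CPM (median 9.63), Drd2 at 24.6, 11.4, 15.2 and 16 CPM against 3.71 to 28.3 CPM (median 10.1) and the enkephalin precursor gene Penk at 124, 91.8, 145 and 103 CPM against 58 to 229.6 CPM (median 82.1). These levels are a small part of those in Drd2+ neurons, where PWK/PhJ had 214, 191, 233 and 181 CPM of Adora2a and 483, 493, 346 and 363 CPM of Drd2. The summed Drd2+ markers (Drd2, Adora2a, Penk and Gpr6) in Drd1+ libraries were 127 to 193 CPM in PWK/PhJ and 84.7 to 242 CPM in the others, with none at 0, and their part in the result was not tested. Without batch 3 the count was 2 of 7, without batch 1 or batch 4 it was 3, and without batch 2 it was 6. In Drd2+ neurons themselves 2 of 8 were higher and 0 lower, where 15.2% and 15.1% of all genes were: Adora2a (0.32 ± 0.06) and Ptprm (0.26 ± 0.06) rose, and Drd2 was at 483, 493, 346 and 363 CPM against 289.8 to 531 CPM (median 441) (log2 fold change -0.04 ± 0.06, adjusted p 0.706). Of 6 direct pathway genes tested in Drd2+ neurons Tac1 was higher and Eya1 lower, with a median log2 fold change of 0.16. The summed Drd1+ markers (Drd1, Tac1, Pdyn and Isl1) were at 61.2 to 90.2 CPM (mean 78.9) in PWK/PhJ Drd2+ libraries and 43.2 to 100.1 CPM (mean 64.2) in the others. The gap lay mainly in Tac1 (mean 62.98 against 49.9 CPM), which itself passed as higher. Drd1 and Pdyn (4.06 against 3.31 CPM) were slightly higher, and Isl1 was lower (0.852 against 1.08 CPM). The mean sum of the other neuron type's markers was thus higher in PWK/PhJ in both clusters, but not each marker was.

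Potassium channel genes fell more often than they rose in both neuron types. In Drd1+ neurons 6 of 48 tested were higher and 17 lower, where 17.0% and 17.3% of all genes were, and in Drd2+ neurons 3 of 46 were higher and 14 lower, where 15.2% and 15.1% were. Kcnn2, a calcium-activated potassium channel, was at 81.1, 74.5, 61 and 64.6 CPM in PWK/PhJ Drd1+ neurons against 81 to 308 CPM (median 181) (log2 fold change -1.31 ± 0.12, adjusted p 2.88e-09, edgeR) and at 74, 81.6, 56.1 and 57.1 CPM in Drd2+ neurons against 96.6 to 354 CPM (median 215) (log2 fold change -1.60 ± 0.14). NZO was the nearest strain, at 94.3 and 121 CPM. Kcnj3 was at 6.15, 9.0, 7.58 and 6.76 CPM in Drd1+ neurons against 7.56 to 82.7 CPM (median 28.4) (log2 fold change -2.04 ± 0.36), and CAST/EiJ, at 9.01 CPM, was close to PWK/PhJ. Kcnk9, an acid-sensitive leak channel, went the other way, at 5.31, 3.46, 5.05 and 7.38 CPM against 0 to 2.4 CPM (median 0.624) (log2 fold change 2.77 ± 0.32). The lower members also included the A-type channel subunits Kcnd2 and Kcnd3 and the delayed rectifier Kcnb2, in both neuron types.

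In neurons, some receptor subunits and synaptic adhesion genes passed. Of 12 GABA-A receptor subunits 2 fell in Drd1+ and 6 in Drd2+ neurons, and 0 rose in either (1 in Drd2+ neurons without batch 1). Of all tested genes 17.3% were lower in Drd1+ and 15.1% in Drd2+ neurons, so the share in Drd1+ neurons was near that of all genes. Gabrg3 was at 539, 604, 458 and 522 CPM in Drd1+ neurons against 413 to 1669.9 CPM (median 1231) (log2 fold change -1.05 ± 0.05, adjusted p 5.89e-21, edgeR), but CAST/EiJ was lower still (456 CPM), so both strains were low. Of 16 ionotropic glutamate receptors tested 4 were higher and 5 lower in Drd1+ neurons, and 3 and 5 in Drd2+ neurons. Without batch 3 the 4 became 2, and without batch 1 the 3 became 1. Grin3a, a modulatory subunit of NMDA receptors, was at 9.78, 13.5, 7.16 and 12.3 CPM against 0 to 7.96 CPM (median 2.07) in Drd1+ neurons and at 8.77, 11.3, 6.64 and 7.14 CPM against 0.495 to 5.64 CPM (median 2.27) in Drd2+ neurons, with log2 fold changes of 2.08 ± 0.28 and 1.84 ± 0.24. The PWK/PhJ mice exceeded all others in Drd2+ neurons and overlapped with them in Drd1+ neurons. Of 46 synaptic adhesion genes 5 were higher and 17 lower in Drd1+ neurons, and 6 and 19 in Drd2+ neurons, against 17.0% higher and 17.3% lower of all genes in Drd1+ neurons and 15.2% and 15.1% in Drd2+ neurons. Nlgn1, a postsynaptic neuroligin of excitatory synapses, fell by 0.38 and 0.63 on the log2 scale, and the leucine-rich repeat gene Lrfn2 by 1.64 and 1.09.

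Genes of sperm and motile cilia moved in both directions in neurons. Of 33 sperm and cilia genes tested in Drd1+ neurons 12 were higher and 5 lower, where 17.0% and 17.3% of all tested genes were, with a median log2 fold change of 0.41. In Drd2+ neurons 11 of 27 were higher and 4 lower, where 15.2% and 15.1% of all were. Cfap44, a cilia-associated gene, was at 14.9 ± 4.04 CPM (SD, n = 4) in PWK/PhJ Drd1+ neurons against 4.79 ± 1.58 CPM (SD, n = 28) (log2 fold change 1.66 ± 0.17, adjusted p 1.23e-10, edgeR), and Rsph1, of the radial spoke, at 17.7 ± 4.44 CPM (SD, n = 4) against 8.52 ± 8.32 CPM (SD, n = 28) (log2 fold change 1.51 ± 0.17), with CAST/EiJ higher still at 27.2 CPM. The dynein heavy chain gene Dnah1 was lower, at 1.83 ± 0.365 CPM (SD, n = 4) against 6.58 ± 1.89 CPM (SD, n = 28) (log2 fold change -1.81 ± 0.26). The list holds paralogs (Catspere1 and Catspere2, Rsph3a and Rsph3b) and Rsph1 overlaps Ubash3a, so its members are not independent. It was written with earlier results of these data known, and the filter on low counts can keep a member through 1 strain in which it is high. The shares are therefore a description and no test of the list. The ependymal markers Foxj1, Ccdc153 and Tmem212, from the cells that carry motile cilia in the brain, summed to 2.92 to 6.77 CPM in PWK/PhJ Drd1+ libraries and 1.00 to 5.60 CPM in the others, and their part in the result was not tested.

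Of 72 nuclear oxidative phosphorylation genes 19 were higher and 2 lower in Drd1+ neurons, where 17.0% and 17.3% of all genes were, and 14 and 2 in Drd2+ neurons, where 15.2% and 15.1% were. The medians were 0.10 and 0.08 on the log2 scale. In oligodendrocytes 4 of 72 were higher, against 7.39% of all genes, and 0 differed in astrocytes or macrophages. The mitochondrially encoded genes rose in 10 of 13 cases in Drd1+ neurons and in 3 of 13 in Drd2+ neurons. In astrocytes 0 of 13 were higher and mt-Co1 was lower, with a median of -0.15, and none of the 13 tested in oligodendrocytes or the 12 in macrophages passed. These counts are close to the shares of all genes (4.78% higher and 4.17% lower in astrocytes, 7.39% and 8.32% in oligodendrocytes, 7.23% and 6.35% in macrophages). The complex I gene Ndufa6 rose by 0.48 in Drd1+ neurons and mt-Nd3 by 0.21. Median UMIs were lower in PWK/PhJ, and the share of mitochondrial counts in Drd1+ libraries was 1.48 to 1.77% against 1.05 to 1.77% in the others; their part in these results was not tested. Without batch 3 the counts in Drd1+ neurons were 8 higher of 72 and 0 of 13, and without the batch block 9 and 0. In Drd2+ neurons the 14 of 72 became 6, 8, 7 and 11 when batches 1 to 4 were left out in turn.

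The dopamine to cAMP cascade showed no common direction. Of 27 genes tested 4 were higher and 4 lower in Drd1+ neurons, where 17.0% and 17.3% of all genes were, with a median log2 fold change of 0.06. The protein phosphatase 1 catalytic gene Ppp1cc was at 115, 102, 120.4 and 119.6 CPM against 67.5 to 109.9 CPM (median 90.7) (log2 fold change 0.36 ± 0.09, adjusted p 0.001, edgeR) and the G protein subunit gene Gng7 at 525 ± 28.8 CPM (SD, n = 4) against 425 ± 46.6 CPM (SD, n = 28) (log2 fold change 0.31 ± 0.06). Pde1b, a phosphodiesterase that degrades cyclic nucleotides, was at 174 ± 33 CPM (SD, n = 4) against 227 ± 32.1 CPM (SD, n = 28) (log2 fold change -0.38 ± 0.06), and the striatal adenylyl cyclase gene Adcy5 fell by 0.17. Ppp1r1b, which encodes DARPP-32, was at 154 ± 23.9 CPM (SD, n = 4) against 165 ± 23.6 CPM (SD, n = 28) (log2 fold change -0.10 ± 0.07, adjusted p 0.246).

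To ask whether PWK/PhJ differed by other amounts in the 2 kinds of projection neuron, the strain difference in Drd2+ neurons minus that in Drd1+ neurons was tested with the mouse as a block. It passed in 234 of 13791 genes (1.70%), 103 of them with the larger value in Drd2+ neurons and 131 with the smaller. The count was 141 without batch 1, 174 without batch 2, 156 without batch 3 and 154 without batch 4, and 31 without the mouse as a block. Reln (chr5:21884454-22344705), the secreted protein reelin, was at 591, 467, 541 and 399.7 CPM in PWK/PhJ Drd1+ neurons against 359 to 737 CPM (median 552) in the other mice (log2 fold change -0.13 ± 0.10, adjusted p 0.373, edgeR). In Drd2+ neurons it was at 145, 99.9, 115 and 85.3 CPM against 169 to 412 CPM (median 270.2), below all 28 others (log2 fold change -1.27 ± 0.18, adjusted p 6.53e-06). The difference between the 2 log2 fold changes was -1.14 ± 0.08 (adjusted p 1.22e-12). Epha6, an ephrin receptor, was at 582, 737, 552 and 739 CPM against 889 to 1298 CPM (median 1061) in Drd1+ neurons and at 373, 445, 333 and 509 CPM against 869 to 1416 CPM (median 1116) in Drd2+ neurons, so that it was lower in both and more so in Drd2+ neurons (difference -0.74 ± 0.04, adjusted p 3.42e-33).

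Fstl5, a secreted follistatin-like protein, was lower in Drd1+ and higher in Drd2+ neurons of PWK/PhJ: 168, 128, 138 and 128 CPM against 60.2 to 257 CPM (median 189) in the former and 220.02, 179.6, 191 and 172 CPM against 20.9 to 207 CPM (median 98.2) in the latter. The log2 fold changes were -0.29 ± 0.07 and 1.18 ± 0.12. Prkd1, a kinase activated by diacylglycerol, also changed sign, at 130.3, 106, 80.4 and 91.3 CPM against 46.5 to 291 CPM (median 163) in Drd1+ neurons and 627, 523, 471 and 464 CPM against 252 to 601 CPM (median 384) in Drd2+ neurons (log2 fold changes -0.56 ± 0.08 and 0.42 ± 0.08). Shisa6, an auxiliary protein of AMPA receptors, rose in both, by 0.89 and 2.22, and Rasgef1b, a Ras-family exchange factor, fell in both, by 0.24 and 0.81. Atp6ap1l, related to a subunit of the vacuolar proton pump, was at 69.9, 71, 88.8 and 56.3 CPM against 33.1 to 120.1 CPM (median 69.8) in Drd1+ and at 12.6, 9.38, 16.3 and 13 CPM against 12.8 to 65 CPM (median 28.7) in Drd2+ neurons. The reelin receptor gene Lrp8 rose in both neuron types, by 0.81 and 0.51. Of 17 tested genes of the reelin pathway 2 rose and 3 fell in each neuron type, shares near those of all genes (17.0% and 17.3% in Drd1+, 15.2% and 15.1% in Drd2+ neurons); in Drd1+ neurons the counts were 1 and 1 without batch 2 or batch 4.

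**Figure D5:**
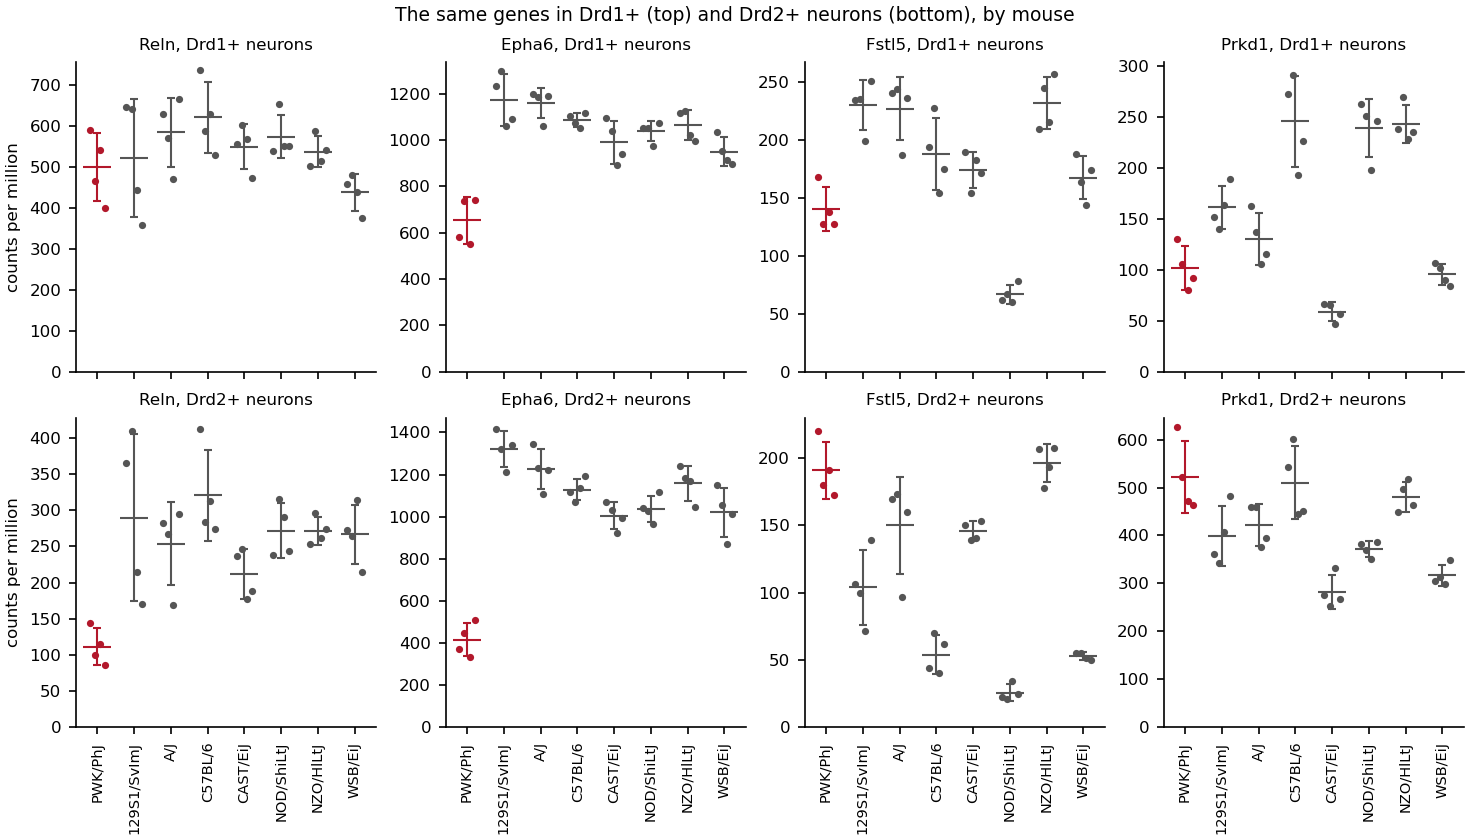
Each point is 1 mouse's CPM (PWK/PhJ in red, 4 mice per strain) in Drd1+ neurons (top) and Drd2+ neurons (bottom), with the mean and SD over the 4 mice. PWK/PhJ lies among the other strains for Reln in the upper row and below all of them in the lower row, and for Fstl5 and Prkd1 all 4 PWK/PhJ mice lie below the median of the others in the upper row and above it in the lower row.

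The share of PWK/PhJ nuclei in each cluster was compared within batches by an exact two-sided permutation test over all 4096 choices of 1 mouse per batch. Macrophages made up 5.46, 5.43, 5.87 and 6.56% of the PWK/PhJ nuclei (mean 5.83 ± 0.523% SD, n = 4) and 2.54 to 7.15% (median 4.8) of those of the other mice. The share was above the mean of the other 7 mice in 4 of 4 batches, with an exact p of 0.0391 and an adjusted p of 0.195 over the 5 clusters, so it did not pass. Taken among non-neuronal nuclei it did, with a log2 difference of 0.57 (exact permutation test, adjusted p 0.00977). Drd1+ neurons made up 30.2 ± 4.84% (SD, n = 4) of PWK/PhJ nuclei against 27.5 ± 4.47% (SD, n = 28) of the others, and oligodendrocytes 18.4 ± 6.58% (SD, n = 4) against 22 ± 4.87% (SD, n = 28). Neither share passed the exact permutation test (adjusted p 0.327 and 0.282). Median UMIs per nucleus were lower than the mean of the other mice in all 4 batches in both neuron types and oligodendrocytes, with log2 differences of -0.15, -0.17 and -0.14 (exact permutation test, adjusted p 0.00326, 0.00244 and 0.00244).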

How the data were processed

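Whole-number RNA counts per gene and nucleus and a table of cell barcodes were deposited. Per the submitters' processing notes, bcl2fastq 2.20.0.422 and Cell Ranger ARC 2.0.0 were used with mm10 (GRCm38). Per the labels, the authors assigned nuclei to strains with Demuxlet on RNA and ATAC reads, removed doublets with DoubletFinder and annotated clusters. How well reads of each strain align to mm10, a C57BL/6J genome, was not measured here.

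Counts were summed per mouse and cluster, filtered with filterByExpr, scaled by TMM and fitted in edgeR 4.0.16 (R 4.3.3, limma 3.58.1) with the robust quasi-likelihood test, strain as factor and batch as block. The fold change used a contrast of PWK/PhJ with the mean of the 7 strains. The labels' batches pair the mice, since each holds 1 mouse per strain. DESeq2 1.42.0, scaling, filter, block, thinning and omission of CAST/EiJ or a batch were alternatives. Levels of single genes are TMM-scaled CPM over the genes kept by the filter, and marker sums are CPM of all counts. Shares and median UMIs were tested by permutation with numpy 2.4.6, and exact counting intervals were computed with scipy 1.17.1.

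Named genes were those whose 4 PWK/PhJ mice lay outside the range of the other 28, with at least 10 CPM and 10 counts per library on the higher side: the 10 of each sign with the largest fold changes in Drd1+ neurons, 5 elsewhere. Further rules named the leading genes shared by all clusters, the 5 of each sign that differed most between neuron types, and list members. Other list members were chosen after their values were seen. Members and lists were chosen with earlier results of these data known, so the share of a list that passed, set beside that of all genes, is no test of the list. Some genes are not reported here, and marker sums leave them out. Intervals and floors cover counting error only.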

Additional observations from a re-analysis of the deposited data

Results flagged for a closer look

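In 7 of 72 groups of 4 PWK/PhJ mice, 1 mouse lay far from the other 3 by Dixon's test, which chance gives in about 1 of 20 groups. Ccdc62 was at 4.27 CPM in the oligodendrocytes of batch 4 and at 0 in the other 3 batches, and Tspan18 was at 15.1 CPM in the macrophages of batch 4 and at 0 in the others. Both are 2 counts in 1 library. Olfml3 was at 14.3 CPM in the macrophages of batch 1, against 44.3 to 45.2 CPM in the other PWK/PhJ mice. The PWK/PhJ mouse of batch 3 had 4.24% astrocytes, against 7.92 to 8.57% in the other 3. In the same mouse median UMIs per nucleus were 4803 in Drd1+ neurons, 4170.0 in Drd2+ neurons and 1876.5 in astrocytes, each the lowest of the 4. Batch 3 had fewer UMIs in every strain: the 8 mice had medians of 4803 to 5667 in its Drd1+ neurons, against 6079.5 to 7637 in the other batches.

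By the test of the difference itself (edgeR, Drd2+ minus Drd1+, log2), more named genes passed than the 10 described here. The 10 were those with the smallest p-values of each sign. Among the others were the synaptic adhesion genes Cntnap3 (-1.94, adjusted p 9.35e-08) and Clstn2 (1.28, 8.61e-06), Gabrg3 (0.194, 2.86e-04) and Kcnn2 (-0.296, 0.0424). In the 10 genes the PWK/PhJ difference was not the same in Drd1+ and Drd2+ neurons. It was more positive in Drd2+ neurons for Fstl5 (1.46 ± 0.09, adjusted p 1.08e-14), Shisa6 (1.31 ± 0.18, 9.35e-08), Prkd1 (0.97 ± 0.08, 1.18e-09), Rbms3, an RNA-binding protein gene (0.32 ± 0.04, 1.90e-08), and the predicted gene Gm10754, which overlaps Epyc (0.28 ± 0.03, 5.51e-11). It was more negative for Epha6 (-0.74 ± 0.04, 3.42e-33), Rasgef1b (-0.57 ± 0.05, 4.99e-17), Reln (-1.14 ± 0.08, 1.22e-12), Nlgn1 (-0.26 ± 0.03, 1.96e-11) and Atp6ap1l (-1.23 ± 0.15, 1.06e-10). Without the mouse as a block, Gm10754, Nlgn1 and Rbms3 no longer passed (adjusted p 0.510, 1.0 and 0.442), and the other 7 did.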

How the results depend on the processing

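Where the log2 fold change also had to reach 1 in size, 889, 815, 450, 320 and 225 genes passed from Drd1+ neurons to macrophages, 158 were apart from each strain and 46 differed between neuron types. With libraries thinned to 27325 counts, 36, 47, 78, 52 and 115 passed. Thinning was not run for the genes apart from each strain or between neuron types. Without the replicate block (unpaired), 3744, 3245, 1180, 631 and 443 genes passed, 295 were apart and 31 differed between neuron types, and median UMIs did not pass (-0.146, -0.172 and -0.136 in Drd1+ neurons, Drd2+ neurons and oligodendrocytes, adjusted p 0.367 each). The block changed none of the calls on shares of nuclei. With batches left out in turn, 3590 to 3945, 2976 to 3226, 974 to 1380, 480 to 656 and 355 to 459 genes passed, 249 to 291 were apart and 141 to 174 differed between neuron types.

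The share difference of oligodendrocytes ranged from -0.525 (without batch 1, adjusted p 0.0391, exact permutation) to -0.0733, and that of Drd2+ neurons was -0.0348 when taken among neurons, against 0.0686. Among non-neuronal nuclei the macrophage share passed (0.57, adjusted p 0.00977, exact permutation). Macrophage UMIs passed as means (-0.116, adjusted p 0.0301) and as medians without batch 3, with a range of -0.124 to -0.0787 over the batches left out. Astrocyte UMIs ranged from -0.0557 to 0.0170 over the batches left out, and were -0.0686 as means.

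For 244 pairs of a named gene and a cluster, 2202 values were computed under the alternatives: 2074 kept their call, 109 lost it, 17 gained it and 2 reversed, Cwc22 in astrocytes (0.48) and Homer1 in Drd2+ neurons (-0.028), both with thinned libraries. The share of higher calls in macrophages was 53.2%, and 64% with no filter on low counts. The causes of these shifts were not tested.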

Other observations

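Cdh18, a neuronal cadherin, was lower in PWK/PhJ Drd1+ neurons, at 335, 305, 295 and 322 CPM against 339 to 1044 CPM (median 654), all below the other 28 mice (log2 fold change -1.05 ± 0.06, adjusted p 1.43e-18, edgeR). In oligodendrocytes, where the other strains have little of it, it was higher, at 89.8, 90.8, 170.1 and 100.3 CPM against 0 to 19.9 CPM (median 6.79) (log2 fold change 3.80 ± 0.24), and in macrophages it was at 221, 111, 495 and 241 CPM against 0 to 130.1 CPM (median 10.2) (log2 fold change 4.28 ± 0.46). Whether the difference itself differs between these clusters was not tested. Csmd3, a large membrane protein with complement control domains, was at 2364, 2239, 2234 and 1958 CPM in PWK/PhJ macrophages against 4398 to 12646 CPM (median 8444) (log2 fold change -1.84 ± 0.10, adjusted p 7.15e-31), with CAST/EiJ next at 4949 CPM. In oligodendrocytes Csmd3 was slightly higher in PWK/PhJ, by 0.22 on the log2 scale.

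Of 23 xenobiotic enzymes tested in oligodendrocytes 4 were higher and 1 lower in PWK/PhJ, where 7.39% and 8.32% of all genes were. Cyp2d22, a cytochrome P450, was at 194, 170.2, 358 and 267 CPM against 4.54 to 65.7 CPM (median 10.7), above all others, with CAST/EiJ next at 57.2 CPM (log2 fold change 4.21 ± 0.14, adjusted p 2.48e-46, edgeR). Aldh1a1, a retinaldehyde dehydrogenase, was at 5.54, 11.3, 12.2 and 10.7 CPM against 3.59 to 129 CPM (median 40.6), with NZO as low at 10.7 CPM. The alarmin gene Il33 was higher in PWK/PhJ astrocytes as well as oligodendrocytes, at 133, 155, 211 and 88.3 CPM in astrocytes against 28.5 to 126 CPM (median 65.1) (log2 fold change 1.07 ± 0.18). Of 4 interferon-stimulated genes tested in oligodendrocytes 3 were lower, against 8.32% of all genes, and Xaf1, a partner of the apoptosis inhibitor XIAP, was at 12.2, 4.54, 6.08 and 6.4 CPM against 5.2 to 44.9 CPM (median 25.8); without batch 4 the count was 1. Epha4, an ephrin receptor, was at 33.3, 43.1, 12.2 and 34.2 CPM against 36.4 to 159.8 CPM (median 85.8) in oligodendrocytes, and fell by 0.84 on the log2 scale in astrocytes.

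Of 19 circadian clock genes tested in Drd1+ neurons 3 were higher and 2 lower, where 17.0% and 17.3% of all genes were, with the clock factor gene Npas2 at 264 ± 10.5 CPM (SD, n = 4) against 352 ± 56.6 CPM (SD, n = 28) (log2 fold change -0.40 ± 0.06). The genes apart from each other strain in Drd1+ neurons were spread over the chromosomes: 25 of 402 tested genes on chromosome 16 (6.22%) and 27 of 607 on chromosome 10 (4.45%) were the highest shares, given as a description.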
